A study of Mus musculus with 6 samples.

Results

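Pecam1, Cdh5, Tek, Tie1, Eng, Esam, Kdr, Flt1, Egfl7 and Emcn are best known as genes of endothelial cells, the lining of blood vessels, and many of them are also read in blood stem cells. They were taken by gene name and make up 10 of the 55421 genes in the table. Blood stem cells of the embryo bud from endothelium, and adult stem cells keep a set of its surface receptors and adhesion proteins. The Tie receptors bind or modulate binding of angiopoietins made by neighbouring cells, the VEGF receptors read growth factor supply, endoglin tunes TGF-beta and BMP signaling, and the junction proteins hold cells to each other and to the vessel wall. For this reason several of these proteins serve as sort markers of both cell types.

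Bone marrow leukemia cells of C57BL/6 mice had been profiled by RNA-seq, with 3 libraries of AE9a-Ddit4+/+ and 3 of AE9a-Ddit4-/- genotype. AE9a (AML1-ETO9a) is a short form of the AML1-ETO fusion protein of acute myeloid leukemia, and both groups carried it, brought by retrovirus into stem and progenitor cells selected for c-Kit, itself a surface marker of such cells. In AE9a-Ddit4-/- cells the donor also lacked Ddit4, which encodes a stress-induced inhibitor of mTOR. Transduced cells were marked by GFP and grew in irradiated recipients, which the methods describe as female, and the mice were 6 to 8 weeks old when obtained. No drug was given to the cells sequenced, and the labels state that they were kept in IMDM with serum. Whether the 3 libraries of a genotype stem from separate leukemias or mice is not stated. The p values therefore measure the spread between these libraries, which may be technical. The paper reports that few mice given knockout cells developed leukemia in the first transplantation. The knockout libraries may thus share a leukemia of origin, and features of that leukemia could then not be told apart from genotype. The comparison asks how expression of the 10 genes differs between AE9a leukemia with and without Ddit4.

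Library totals ran from 62141558 to 72717681 counts. Levels are given in CPM, counts per 1e+06 after TMM normalization, and 12 counts in a library, 0.163 to 0.198 CPM, were taken as the limit of detection. Ddit4 fell by 1.56 on the log2 scale (SE 0.28, adjusted p 0.00635) and kept 77.7 to 85.9 CPM in the AE9a-Ddit4-/- libraries, against 161 to 342 CPM in wild type. Xist, which coats the inactive X chromosome, had 566 to 1032 CPM in wild-type cells and 20.3 to 129 CPM in knockout, and the Y-linked Ddx3y had at most 0.08 CPM in wild-type cells and 88.2 to 125 CPM in knockout. Genotype and sex of the cells therefore cannot be told apart in anything that follows. Mitochondrial genes took 5.03% to 7.90% of the counts in wild type and 11.3% to 16.4% in knockout, and the part of this difference in the results was not tested.

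Most of the 10 genes were higher in AE9a-Ddit4-/- cells. Of the 10, 8 rose past the threshold (edgeR adjusted p below 0.05 over 18375 genes tested), 0 fell, Flt1 did not pass and Emcn had too few counts to be tested. Among all genes tested, 19.4% were called higher, 10.7% lower and 30.1% in either direction. All 3 knockout libraries lay above all 3 wild-type libraries in each of the 9 genes, a pattern seen in 27.9% of all genes tested. Their summed level in CPM was 99.1, 45.1 and 57.5 for AE9a-Ddit4+/+ libraries 1 to 3, against 541, 619 and 521 for AE9a-Ddit4-/- libraries 1 to 3.

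These counts, and any median over the genes, depend on how a gene entered the test. Pecam1, Cdh5, Eng, Flt1 and Egfl7 had enough counts in wild type as well, and 4 of these 5 rose, with a median log2 fold change of 2.49. Of the 15065 genes past the low-count minimum in every wild-type library, 14.1% rose, and their median was -0.15. Over all 9 genes the median was 5.23, against 0.04 for all genes tested. Tek, Tie1, Esam and Kdr passed the filter only through the knockout libraries. Genes of that kind had to be high in knockout to be tested at all, and of 2457 such genes 58.7% were called higher and 79.4% had no overlap of the groups in that direction. In bulk RNA a larger share of cells that express a gene and more RNA of it per cell cannot be told apart.

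**Figure D1:**
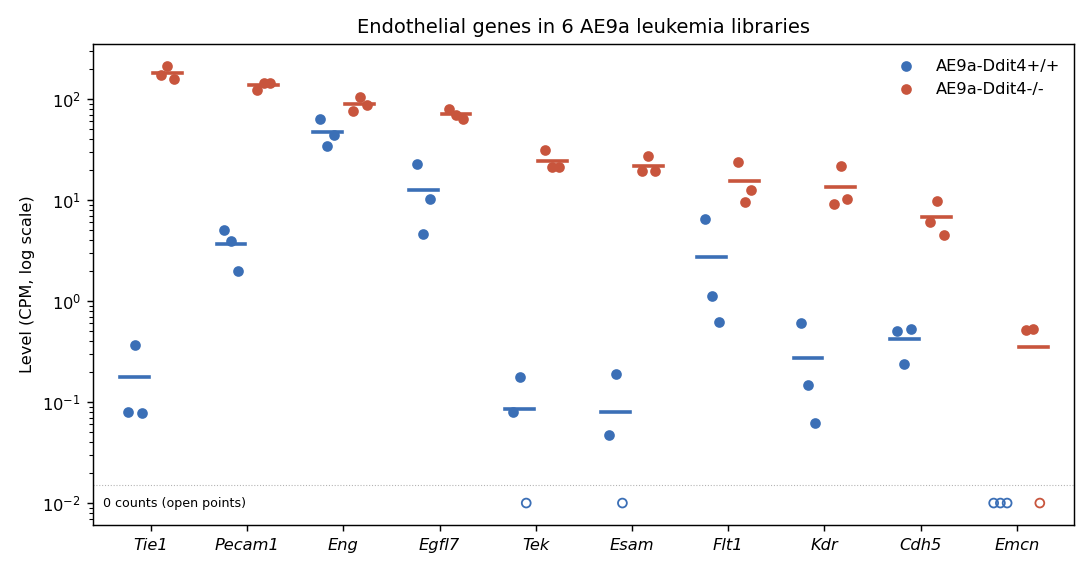
Level of each of the 10 genes in each library (CPM, log axis), ordered by mean level in knockout. Points are the 3 AE9a-Ddit4+/+ (blue) and 3 AE9a-Ddit4-/- (red) libraries, short lines are group means, and open points below the dotted line are libraries with 0 counts. The groups do not overlap in 9 genes, and Tie1 goes from a mean of 0.175 CPM to the highest mean in knockout, 182 CPM.

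The largest rise was that of Tie1, an orphan receptor tyrosine kinase that modulates signaling by its partner Tek (ENSMUSG00000033191, GRCm38 chromosome 4, 118471191 to 118490061, minus strand). It had 5, 25 and 5 counts in the AE9a-Ddit4+/+ libraries and 10760, 12931 and 11693 counts in the AE9a-Ddit4-/- libraries. Wild-type cells thus held Tie1 RNA near the limit of detection, and every knockout library held it at a high level. On the CPM scale it went from 0.175 ± 0.167 to 182 ± 28.0 (SD, n = 3 each), with a log2 fold change of 9.99 (SE 0.63, adjusted p 0.000197), or 11.14 when wild-type library 2 was dropped. Tie1 was 0.26% of the summed CPM of the 10 genes in wild type and 32.4% in knockout.

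Tek, also named Tie2, is the receptor of the angiopoietins and is tied to the quiescence of blood stem cells in the marrow (ENSMUSG00000006386, chromosome 4, 94739289 to 94874976, plus strand). Its counts were 5, 12 and 0 in wild type, none above the limit of detection, and 1963, 1277 and 1552 in knockout. The knockout level was 31.5, 21.0 and 21.1 CPM. It was at least 129-fold higher than the limit in wild type (adjusted p 0.000987). Both receptors of the family were therefore read in each AE9a-Ddit4-/- library, Tie1 at the higher level.

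Kdr, the main signaling receptor for VEGF-A (ENSMUSG00000062960, chromosome 5, 75932827 to 75978458, minus strand), had 0.602, 0.147 and 0.0619 CPM in wild-type cells and 9.14, 21.5 and 10.1 CPM in knockout. Its log2 fold change was 5.65 (SE 0.90, adjusted p 0.00390). The wild-type values rest on 38, 10 and 4 counts and span 9.72-fold, with library 1 the highest, and without it the log2 value was 6.99. Flt1, a VEGF receptor that binds ligand tightly and signals weakly (ENSMUSG00000029648, chromosome 5, 147561604 to 147726011, minus strand), had 6.43, 1.12 and 0.619 CPM in wild-type cells and 23.6, 9.52 and 12.7 CPM in knockout. The groups did not overlap, yet the spread within wild type was 10.4-fold and the log2 fold change of 2.49 (SE 0.88) did not pass (adjusted p 0.0695). When wild-type library 1, the highest of its group, was dropped, the value was 4.13 (adjusted p 0.00764).

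Eng encodes endoglin, a co-receptor for TGF-beta and BMP ligands that is used to sort stem cells (ENSMUSG00000026814, chromosome 2, 32646595 to 32682669, plus strand). It was the one gene of the 10 with a high level in both genotypes, at 63.4, 34.3 and 44.0 CPM in wild-type cells and 75.3, 104 and 87.2 CPM in knockout. The lowest knockout library lay close above the highest wild-type library. Its log2 fold change of 0.91 (SE 0.27, adjusted p 0.0375) was the smallest of the 9. The call was lost in 5 of the 6 fits that left out 1 library, with values of 0.73 and 0.86 when wild-type library 2 or 3 was dropped. Dropping knockout library 1, 2 or 3 gave 1.02, 0.74 and 0.89, and adjusted p over these 5 fits ran from 0.0554 to 0.125. Eng made up 70.2% of the summed CPM of the 10 genes in wild type and 15.8% in knockout.

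Pecam1 encodes CD31, an adhesion protein of endothelial junctions, platelets and leukocytes (ENSMUSG00000020717, chromosome 11, 106654217 to 106750628, minus strand). It had 5.002, 3.93 and 1.98 CPM in wild-type cells and 123, 143 and 144 CPM in knockout. With 128 to 316 counts in the wild-type libraries it was read in each of them, far below each knockout library. In CPM the mean went from 3.64 ± 1.53 to 137 ± 11.8 (SD, n = 3 each), and the fitted log2 fold change was 5.23 (SE 0.38, adjusted p 0.000293). Its spread in knockout was the smallest of the 10 genes, with the highest library 1.17 times the lowest.

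Cdh5 encodes VE-cadherin, the adhesion protein of endothelial adherens junctions, which blood stem cells of the embryo carry for a time (ENSMUSG00000031871, chromosome 8, 104101625 to 104144511, plus strand). Its level was 0.507, 0.236 and 0.526 CPM in wild-type cells and 6.09, 9.68 and 4.47 CPM in knockout. The log2 fold change was 3.99 (SE 0.54, adjusted p 0.00212). Esam, an adhesion protein of endothelial tight junctions and platelets and a marker of blood stem cells (ENSMUSG00000001946, chromosome 9, 37528078 to 37538319, plus strand), had 3, 13 and 0 counts in wild type and 1205, 1644 and 1425 in knockout. In knockout this was 19.4, 27.1 and 19.4 CPM, and the log2 fold change was 8.05 (SE 0.93, adjusted p 0.00127). Only AE9a-Ddit4+/+ library 2 was above the limit of detection for Esam, by 1 count, and when it was dropped the fitted value was 9.75.

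Egfl7 encodes a secreted protein of endothelium and of stem and progenitor cells (ENSMUSG00000026921, chromosome 2, 26580014 to 26593120, plus strand). It had 23.0, 4.64 and 10.2 CPM in wild-type cells and 79.5, 69.7 and 63.1 CPM in knockout. The knockout libraries lay close together and the wild-type libraries spread over 4.95-fold. Its log2 fold change was 2.49 (SE 0.54, adjusted p 0.0122), nearly the value of Flt1, whose SE was larger. When wild-type library 1 was dropped it was 3.25, and adjusted p rose to 0.0490 when library 3 was. The gene hosts the microRNA miR-126, whose own row, Mir126a, had 0 counts in wild type and 1 count in each knockout library. Libraries of this kind do not measure mature microRNAs.

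Emcn encodes endomucin, a sialomucin of venous and capillary endothelium and of blood stem cells (ENSMUSG00000054690, chromosome 3, 137341067 to 137432185, plus strand). It had 0 counts in the 3 wild-type libraries and 32, 32 and 0 counts in knockout. The groups overlapped at 0, the gene was removed by the low-count filter, and no fold change is given. With no filter its adjusted p was 0.0776. The 0 was read in knockout library 3, which had the largest total, and when that library was dropped the adjusted p was 0.0239.

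**Figure D2:**
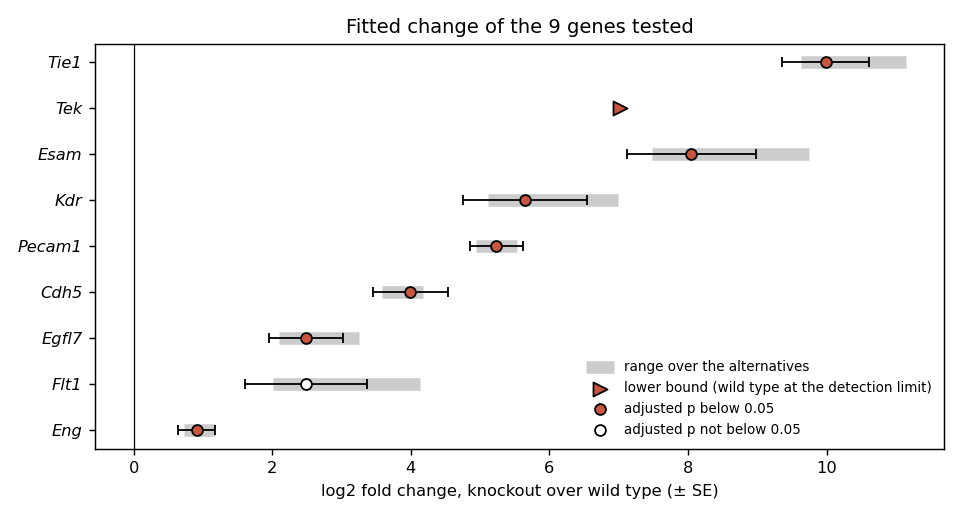
Fitted log2 fold change of each gene tested, knockout over wild type, with its SE. Grey bars span the values under the alternatives, the white point is Flt1, whose adjusted p was 0.0695, and the triangle is the lower bound of Tek, at least 129-fold. Values run from 0.91 for Eng to 9.99 for Tie1, and all lie above 0.

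Compared per length of exon, the order of the levels changed between genotypes. In wild type the mean level was highest for Eng (11.7 CPM per kb), followed by Egfl7 (3.52), Pecam1 (0.584), Flt1 (0.202) and Cdh5 (0.101). Tie1, Kdr, Esam and Tek stood at 0.0356 to 0.0181 CPM per kb, and these neighbours in the order do not differ beyond their spread. In knockout Tie1 had the highest mean (36.9 CPM per kb), ahead of Pecam1, Eng and Egfl7 at 22.0, 21.9 and 19.8 CPM per kb. The libraries of the latter 3 genes overlap, at 19.8 to 23.2, 18.6 to 25.6 and 17.6 to 22.2 CPM per kb. Esam (7.65 ± 1.55) and Tek (5.21 ± 1.28) followed, with ranges of 6.75 to 9.44 and 4.46 to 6.69 CPM per kb that do not overlap. Cdh5, Kdr and Flt1 lay at 1.61, 1.51 and 1.13 CPM per kb and overlapped. Emcn was last in both genotypes, at 0.064 CPM per kb in knockout. Tie1 and Pecam1 thus came up to or past Eng in knockout, and Flt1 went from the fourth place to the ninth.

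**Figure D3:**
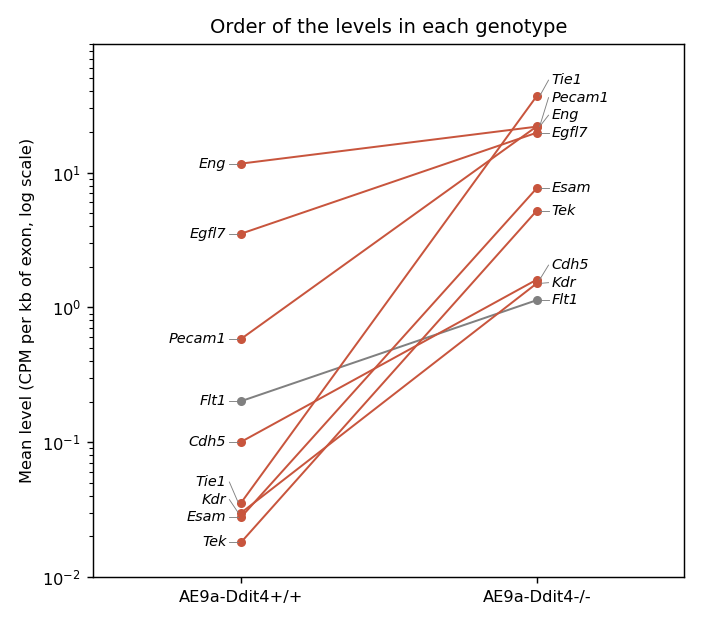
Mean level of 9 genes in CPM per kb of exon (log axis) in AE9a-Ddit4+/+ (left) and AE9a-Ddit4-/- cells (right), with a line joining each gene and thin leaders to the names. Emcn, at 0 in wild type, is left out. Lines in red passed the threshold and the grey line (Flt1) did not. Tie1 rises from 0.0356 to 36.9 and crosses Eng, which goes from 11.7 to 21.9.

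The genes did not vary alike within a genotype. In wild type, library 1 was the highest for Pecam1, Eng, Kdr, Flt1 and Egfl7, library 2 for Tek, Tie1 and Esam, and library 3 for Cdh5. The wild-type order is not firm for Tek, Tie1 and Esam, with at most 25 counts in a library. Nor is it for Cdh5, with 32, 16 and 34 counts. In knockout, library 2 was the highest for 5 of the 9 genes tested (Cdh5, Tie1, Eng, Esam and Kdr). Flt1 moved differently from Kdr in knockout, with library 1 the highest for Flt1 and the lowest for Kdr.

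Of the promoters searched for motifs 5 are shown as examples, 4 of genes called higher and that of Flt1, which did not pass. RefSeq (GRCm38.p6) held promoter entries for 7 of the 10 genes, and Pecam1, Cdh5 and Esam had none. A search on both strands of the 250 bases before each start used 3 motifs, GGAAGT for ETS factors (ACTTCC on the other strand), TGTGGT for RUNX factors (ACCACA) and AGATAA for GATA factors (TTATCT). The ETS motif was found for 5 of the 7 genes, namely Tie1, Eng, Kdr, Flt1 and Egfl7, and in 19.7% of 32851 promoters of the same length. For Egfl7, with 3 entries, more sequence was searched. The RUNX and GATA motifs, found in 14.0% and 9.99% of all promoters, were in 0 of the 7. These are matches of letters and no evidence of binding. In the following stretches, written 5′ to 3′ on the strand of the gene, capitals mark the ETS motif, and Tek is shown as a gene without it. They are Tek (chr4:94739039-94739288, plus strand), Kdr (chr5:75978459-75978705, minus strand), Flt1 (chr5:147726012-147726261, minus strand), Eng (chr2:32646345-32646594, plus strand) and the second of 3 entries of Egfl7 (chr2:26583615-26583863, plus strand).
Tek: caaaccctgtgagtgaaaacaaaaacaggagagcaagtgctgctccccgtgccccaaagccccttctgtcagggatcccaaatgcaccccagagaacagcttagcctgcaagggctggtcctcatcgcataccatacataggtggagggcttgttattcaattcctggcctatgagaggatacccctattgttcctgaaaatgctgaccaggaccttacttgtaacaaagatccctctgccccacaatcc
Kdr: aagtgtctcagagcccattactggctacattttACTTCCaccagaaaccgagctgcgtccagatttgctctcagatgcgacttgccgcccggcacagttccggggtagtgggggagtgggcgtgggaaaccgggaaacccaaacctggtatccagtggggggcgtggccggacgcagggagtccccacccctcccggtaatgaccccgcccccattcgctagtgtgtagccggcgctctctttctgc
Flt1: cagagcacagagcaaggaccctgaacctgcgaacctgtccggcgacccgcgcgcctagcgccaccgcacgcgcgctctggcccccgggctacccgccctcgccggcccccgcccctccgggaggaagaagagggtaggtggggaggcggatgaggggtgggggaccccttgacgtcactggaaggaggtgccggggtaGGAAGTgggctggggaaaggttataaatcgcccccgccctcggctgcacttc
Eng: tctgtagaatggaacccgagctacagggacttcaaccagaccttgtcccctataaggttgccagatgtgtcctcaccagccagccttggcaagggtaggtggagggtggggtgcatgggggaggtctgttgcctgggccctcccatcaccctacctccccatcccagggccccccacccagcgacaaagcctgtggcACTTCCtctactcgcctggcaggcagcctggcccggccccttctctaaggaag
Egfl7: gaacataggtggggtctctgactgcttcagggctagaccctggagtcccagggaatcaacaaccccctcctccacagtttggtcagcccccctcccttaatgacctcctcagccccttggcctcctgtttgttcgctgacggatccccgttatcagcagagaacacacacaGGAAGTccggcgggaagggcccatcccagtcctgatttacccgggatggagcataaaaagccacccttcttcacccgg

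The motif begins 53 bases before the start of Eng, 52 before that of Flt1, 217 before that of Kdr and 79 before this start of Egfl7. Eng and Flt1, with the motif at nearly the same distance but on opposite strands, went from 47.2 to 88.8 CPM and from 2.72 to 15.3 CPM on average. Tie1, whose motif begins 82 bases before its RefSeq start at 118489849, went from 0.175 to 182 CPM. That motif lies inside the GENCODE gene, which starts farther upstream, at 118490061. Tek, without the motif, went from the limit of detection to 24.6 CPM. The part of the motif in these changes was not tested.

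Partners of these receptors were examined next, as lists of ligands, co-receptors and adaptors. Counts and medians of lists include genes that entered the test only through knockout. Among 10 partners of the VEGF receptors, 9 were tested, 5 rose and 0 fell, with a median log2 fold change of 2.35. Of the 5, 3 passed the filter only through knockout, where 58.7% of all such genes were called higher. Of the 6 with enough counts in wild type as well, 2 rose, with a median of 0.45, against 14.1% of all such genes. Vegfc, a ligand of Flt4 and Kdr, had 0 counts in wild type and 3.96 ± 0.600 CPM in knockout, at least 20.8-fold higher, and Flt4, the third VEGF receptor, went from 0 counts to 3.60 ± 0.675 CPM, at least 18.9-fold higher. Plcg1, the phospholipase that Kdr recruits, rose from 22.6 ± 2.24 to 237 ± 73.9 CPM, with a fitted log2 change of 3.39 (SE 0.28, adjusted p 0.000429). Vegfa itself, the main ligand of Kdr and Flt1, was at 38.5 ± 19.6 and 52.4 ± 23.2 CPM, with overlapping groups (adjusted p 0.493). The number of higher genes ran from 2 to 5 over the alternatives.

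Of 7 partners of the Tie receptors, 6 were tested, 1 rose and 1 fell, with a median of 0.37. Among all genes tested 19.4% rose and 10.7% fell. Angpt1, the activating ligand of Tek, rose from 42.2 ± 16.6 to 136 ± 45.2 CPM (log2 fold change 1.68, SE 0.36, adjusted p 0.0123). Grb2, an adaptor used by many receptors, fell by 0.93 on the log2 scale (SE 0.18, adjusted p 0.00790). Angpt2 and the phosphatase Ptprb, which restrain Tek, were below 1 CPM on average in both genotypes and did not pass (adjusted p 0.128 and 0.284). Receptor and activating ligand were thus both read in the knockout libraries.

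Of 19 genes around endoglin, 17 were tested, 8 rose and 1 fell, with a median of 1.02, against 19.4% higher and 10.7% lower among all genes tested. Receptors were among those that rose, namely Tgfbr3, Bmpr2, Tgfbr1 and Tgfbr2 with log2 fold changes of 1.85, 1.61, 1.60 and 1.12. The targets Id1 and Id3 (1.30 and 1.67) and the inhibitory Smad6 (3.16) rose as well. Tgfbr1, Tgfbr2, Id1 and Id3 passed in 6, 8, 7 and 8 of 13 alternatives. The target Id2 moved the other way, from a mean of 78.6 CPM in wild type to 45.4 CPM in knockout. Its groups did not overlap, yet its log2 fold change of -0.79 did not pass (adjusted p 0.0610). Acvrl1, the receptor that pairs with endoglin in endothelium, had 5.15 ± 3.22 CPM in wild-type cells and 2.33 ± 1.44 CPM in knockout and did not pass (adjusted p 0.244). Smad9 went from 1.40 ± 0.648 CPM to 0 counts, at least 7.07-fold lower. Gdf2 (BMP9), a ligand of endoglin, had 0 counts in all libraries. The number of higher genes ran from 3 to 9 over the alternatives, so that this count is not firm.

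Of 12 partners of the junction proteins, all were tested, 3 rose and 2 fell, with a median of 0.90. Among all genes tested 19.4% rose and 10.7% fell, so these counts by themselves do not set the list apart. Jup (plakoglobin), a catenin that binds cadherins, rose from 2.05 ± 0.716 to 60.8 ± 11.6 CPM, and F11r, a junction adhesion molecule, from 2.04 ± 1.33 to 51.2 ± 7.87 CPM, with log2 fold changes of 4.89 and 4.65. Ctnna1, the catenin that links cadherins to actin, fell by 1.98 on the log2 scale (SE 0.21, adjusted p 0.000869), and the tight junction scaffold Tjp1 fell by 2.44 (adjusted p 0.0410). Ctnnb1, the most abundant of the list, had a value of 0.85 and did not pass (adjusted p 0.0693). Members of the cadherin complex therefore moved in opposite directions, and 2 to 5 genes of the list were higher and 1 to 3 lower over the alternatives.

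**Figure D4:**
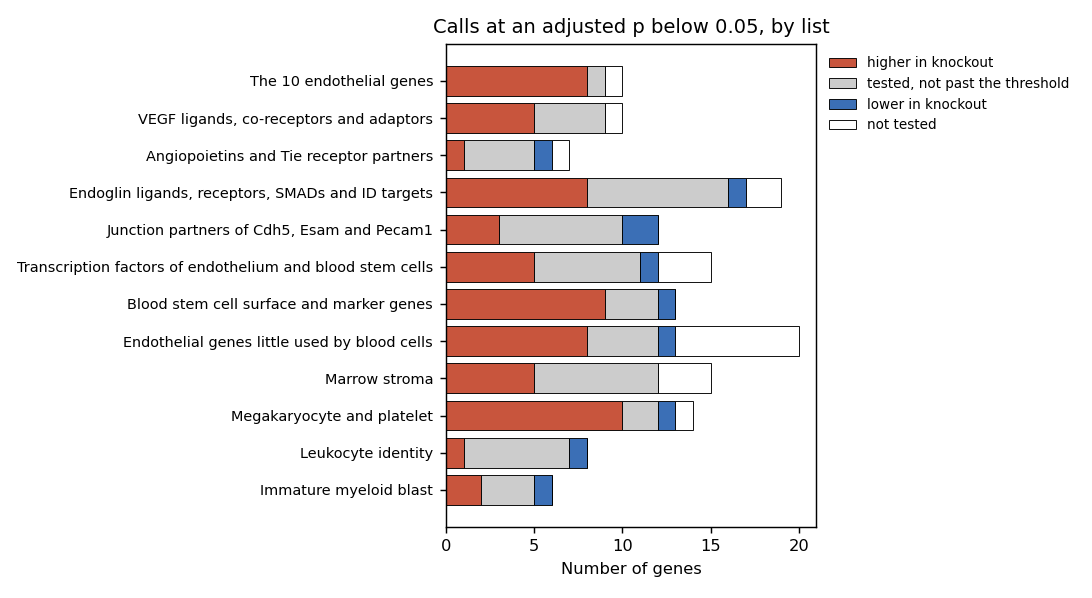
Number of genes in each list called higher (red) or lower (blue) in AE9a-Ddit4-/- cells at an edgeR adjusted p below 0.05, tested without a call (grey) or not tested (white). Red are 8 of the 10 endothelial genes, 10 of 14 megakaryocyte and platelet genes, 9 of 13 stem cell surface and marker genes and 8 of 20 further endothelial genes, and the lists differ in length.

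Transcription factors that endothelium and blood stem cells share did not move as 1 group. Of 15, 12 were tested, 5 rose and 1 fell, with a median of 0.61, against 19.4% higher and 10.7% lower among all genes tested. Erg, an ETS factor of both cell types, rose from 1.73 ± 0.431 to 99.7 ± 19.0 CPM (log2 fold change 5.84, SE 0.31, adjusted p 0.000129). Gata2 rose from 147 ± 28.5 to 564 ± 57.4 CPM (1.94, SE 0.21, adjusted p 0.000869). Etv2 and Sox18 were at least 13.9-fold and 12.6-fold higher, and Elk3 rose by 1.81. Lmo2 fell by 1.62. Fli1, Tal1 and Hhex were at 49.0, 156 and 244 CPM in wild-type cells and 51.1, 173 and 257 CPM in knockout and did not pass. Over the alternatives 3 to 6 genes of this list were higher and 0 to 1 lower, Lmo2 having passed in 8 of 13.

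Most of the listed blood stem cell surface and marker genes outside the 10 were higher, with 9 of 13 up, 1 down and a median of 3.85. The list also holds progenitor genes, such as Flt3 and Cd48. Of the 9, 3 passed the filter only through knockout. Of the 10 with enough counts in wild type as well, 6 rose, with a median of 2.10, against 14.1% of all such genes. Flt3, called higher, passed in 6 of 13 alternatives. Prom1, Cd48 and Hlf did not pass, with log2 fold changes of -1.48, -1.05 and 1.63. Cd34 rose from 5.92 ± 3.79 to 519 ± 34.4 CPM, Cd93 from 19.7 ± 7.83 to 284 ± 42.2 CPM and Thy1 from 0.155 ± 0.133 to 40.3 ± 3.71 CPM. Podxl, a sialomucin that endothelium and stem cells share, fell by 2.87 on the log2 scale (SE 0.52, adjusted p 0.00647). Over the alternatives 6 to 9 of these genes were higher.

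Markers of other cells that could be present were read next. Of 20 endothelial genes that blood cells use little, 13 were tested, 8 rose and 1 fell, with a median of 3.80 (3.43 with genes at the limit of detection at their bounds). Of the 8, 7 passed the filter only through knockout, where 58.7% of all such genes were called higher. Robo4 had 11.9 ± 2.57 CPM in knockout, Fabp4 10.2 ± 2.06, Ecscr 5.48 ± 1.97 and Stab2 3.31 ± 1.40, against less than 1 CPM each in wild type. Cldn5, Mmrn2, Clec14a, Sox17, Aplnr, Ushbp1 and Tmem100 were too low to be tested and averaged at most 0.545 CPM in knockout. Plvap, the fenestral protein of vessels, went from 19.9 ± 10.6 to 5.63 ± 3.22 CPM (log2 fold change -1.82, adjusted p 0.0457), with overlapping libraries. The list summed to 45.6, 21.0 and 23.8 CPM in wild-type libraries 1 to 3, of which Plvap was 29.6, 8.61 and 21.5 CPM. In knockout libraries 1 to 3 it summed to 58.2, 44.2 and 87.2 CPM, of which Plvap was 3.68, 3.87 and 9.35 CPM. The 10 genes summed to 521 to 619 CPM in knockout. Over the alternatives 1 to 9 genes of this list were higher. The part of endothelial cells in the rise of the 10 genes was not tested.

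Of 15 marrow stroma genes, 12 were tested, 5 rose and 0 fell, with a median of 1.70 (1.41 at bounds). Of the 5, 4 passed the filter only through knockout. Of the 7 with enough counts in wild type as well, 1 rose, with a median of 0.95. Pdgfrb alone, at 154 ± 13.7 CPM in knockout, made up most of the list's 171 to 196 CPM, while Col1a1, Dcn and Lum were at 5.35, 3.06 and 0.164 CPM. In wild type the list summed to 9.52 to 17.4 CPM, and 1 to 6 of its genes were higher over the alternatives. Of 14 megakaryocyte and platelet genes 10 were higher and 1 lower, with a median of 5.23. Of the 10, 4 passed the filter only through knockout. Of the 9 with enough counts in wild type as well, 6 rose, with a median of 4.13, against 14.1% of all such genes. They summed to 143 to 227 CPM in wild-type cells and 2426 to 3354 CPM in knockout, with Itga2b (CD41, also on early stem and progenitor cells) at 2021 ± 279 CPM. Pf4 and Clec1b were at 84.5 and 150 CPM in knockout, Ppbp and Gp9 at 7.03 and 4.31 CPM, and Vwf fell by 2.06 on the log2 scale. Over the alternatives 6 to 10 of these genes were higher and 0 to 1 lower, Vwf having passed in 7 of 13. Pecam1 and Esam are platelet genes as well, and the part of such cells in their rise was not tested. The list of 8 leukocyte genes summed to 2423 to 3028 CPM in wild-type cells and 2406 to 2875 CPM in knockout, with Ptprc (CD45) at 108 ± 56.5 and 578 ± 111 CPM. Genes of blood cells were thus read in both groups. Runx1t1, the mouse gene of the ETO part of the fusion, had 11.9 ± 5.83 CPM in wild-type cells and 139 ± 67.9 CPM in knockout (SD, n = 3 each, log2 fold change 3.55, SE 0.52, adjusted p 0.00295). Counts per gene do not separate reads of the retroviral AE9a from those of the mouse gene, so that the level of AE9a in the groups was not measured, and its part in the results was not tested. Of 6 immature myeloid blast genes 2 rose, Kit and Cd34, and Elane fell, with overlapping libraries.

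Several of the genes lie beside others that rose. The nearest tested gene on each side of each of the 10 gave 20 neighbours. Of these, 7 rose, 2 fell and 11 did not pass, with a median log2 fold change of 0.80, against 19.4% called higher among all genes tested. Tmem125, 50.9 kb from Tie1 on chromosome 4, was at least 3.04-fold higher, at 13 to 66 counts per knockout library. Vsig2 begins 0.936 kb after Esam and had 0.198 CPM in wild-type cells and 4.96 CPM in knockout (log2 fold change 4.63, SE 0.50, adjusted p 0.000899). Gm19590, a long noncoding RNA gene 97.2 kb from Kdr, was at least 15.5-fold higher. On the same stretch of chromosome 5, Pdgfra, Kit and Kdr follow each other at 377 and 276 kb, and all 3 receptor tyrosine kinase genes were higher, with Kit from 24.7 ± 8.92 to 411 ± 103 CPM and Pdgfra at least 8.88-fold higher.

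The nearest tested neighbours of Tek, Flt1 and Cdh5 were not called higher. Ift74 and Eqtn beside Tek had values of -0.01 and 1.22 and did not pass, and Pan3 and Pomp beside Flt1 had values of 0.09 and -0.61. Beyond Pan3 lies Flt3 (chromosome 5, 147330741 to 147400489), also a receptor tyrosine kinase gene. It was called higher (1.32, adjusted p 0.0464) and passed in 6 of 13 alternatives. Cdh5 lies between Gm8730, which fell by 1.17, and Tk2 (0.86, adjusted p 0.115). Agpat2 and Fpgs overlap the ends of Egfl7 and Eng on the other strand. Whether counting used strand is not given in the sources used here, so reads of the shared bases could not be told apart. Agpat2 was called higher (0.96, adjusted p 0.0465) and Fpgs had a value of -0.01. Ak1, on the other side of Eng, was called higher as well (2.65, adjusted p 0.00580), and so was Tex2 beside Pecam1 (1.18, adjusted p 0.00529).

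**Figure D5:**
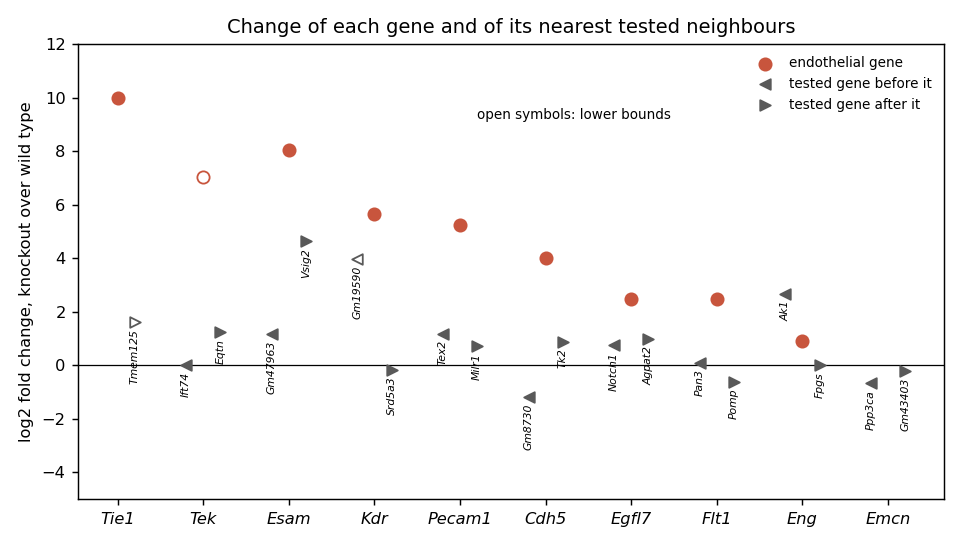
Log2 fold change, knockout over wild type, of each of the 10 genes (circles) and of nearest tested genes before and after them on the chromosome (triangles). Open symbols are lower bounds for genes at the limit of detection in wild type. Pecam1, Tie1, Eng, Esam, Kdr and Egfl7 each stand beside at least 1 gene that was called higher, such as Vsig2 beside Esam (4.63), Tek, Cdh5 and Flt1 do not, and Emcn itself was not tested.

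The genes outside all lists whose profile over the 6 libraries was most like the mean of the 9 genes were Cd244a, Fabp5, Bhlha15, Tmem176a and Atp10a. Their Euclidean distances of row-centred log2 CPM were 0.460, 0.519, 0.532, 0.606 and 0.632. Among the 9 genes only Pecam1 was closer to the mean, at 0.345. All the others lay farther from it than these outside genes, such as Cdh5 (2.32), Tek (3.68), Eng (5.47) and Tie1 (6.03). The mean profile was thus close to that of Pecam1 and does not stand for each of the 9 genes. Cd244a, a receptor of the SLAM family on blood cells, went from 3.19 to 109 CPM, and Fabp5, a fatty acid binding protein, from 4.01 to 153 CPM.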

How the data were processed

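RNA-seq libraries of bone marrow leukemia cells were grouped by the genotype in their titles, 3 AE9a-Ddit4+/+ and 3 AE9a-Ddit4-/-. The authors deposited 1 table of raw counts per gene (whole numbers, not scaled), with 1 column per library. The aligner, the counter and the use of strand are not given in the sources used here, and the submitters' processing notes name GRCm38 and mm10. The labels name an mRNA kit and the methods an rRNA-depleted directional kit with paired 150 bp reads on a NovaSeq instrument. Low values of 4, 8 and 12 counts were 1.40 to 1.62 times as frequent as 2, 6 and 10, so that the fragments behind a value are not known. The limit of 12 counts (3 fragments if each was counted 4 times) covers counting error only. Of the identifiers, 55240 were in GENCODE M21 on GRCm38, the source of positions and exon lengths, and 27 symbols that a spreadsheet had turned into dates were restored.

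Genes were tested with the edgeR 4.0.16 quasi-likelihood F-test (R 4.3.3, robust, filterByExpr, TMM, genotype only), with Benjamini-Hochberg adjustment over 18375 genes and a threshold of 0.05, after tests on simulated data. SE was taken from the F statistic, as the size of the log2 fold change over the root of F. Where all libraries of a group held at most 12 counts, a bound against the highest limit in that group is given. The fold changes are knockout over wild type. There were 13 alternatives, among them DESeq2 1.42.0 and 6 fits that each left out 1 library. The 10 genes and the 11 lists were chosen with earlier results of these data known, and genes such as Ptprb, Flt4, Sox17, Sox18, Kit and Cd34 are in 2 lists. A gene counted in the lists and neighbours is not reported here. No set test was run. Named are the 10 genes, Ddit4, list members, nearest tested neighbours and the 5 genes outside the lists closest to the mean row-centred log2 CPM profile of the genes tested. From lists with more than 4 genes tested, those with the largest called change and the highest mean CPM were to be named, and further list members (such as Vegfa, Acvrl1, Fli1 and Cd93) were added after their values were seen, as were Xist and Ddx3y. Promoters came from RefSeq, and bases inside GENCODE exons were not printed.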

Additional observations from a re-analysis of the deposited data

How the results depend on the processing

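Pecam1, Cdh5 and Egfl7 stayed past the threshold under all 13 alternatives, and Tek, Tie1, Esam and Kdr under the 12 in which they could be tested. The number of the 10 genes called higher was 4 when at least 10 counts were asked of every library, since fewer of them were then tested. Eng kept its direction but passed in only 6 of 13. Its log2 fold change was 0.88 with no filter (adjusted p 0.0590) and 0.73 to 1.18 when 1 library was left out, with adjusted p values of 0.0711 and 0.118 when wild-type library 2 or 3 was dropped, and 0.0554, 0.125 and 0.0984 for knockout library 1, 2 or 3. Flt1 passed in 4 of 13, with 2.49 by DESeq2 (adjusted p 0.00677) and 2.50 with counts divided by 4 (0.0492), and had values of 2.01 to 4.13 when 1 library was left out. Emcn passed in 1 of the 5 fits that tested it, without AE9a-Ddit4-/- library 3 (adjusted p 0.0239). Of all genes, 2341 were higher when each library needed 10 counts or more, and 1089 to 2078 were lower when 1 library was left out, against 1975, with 1168, 1089 and 1157 without AE9a-Ddit4+/+ library 1 or 3 or AE9a-Ddit4-/- library 1. Library totals as the only scaling left 59.4% of the called genes higher, against 64.3%.

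Replicate numbers are shared by the groups but did not pair the libraries, since deviations of libraries with the same number had correlations of -0.165, -0.194 and -0.0495. With the replicate block, 2177 genes were higher and 787 lower, Eng had 0.95 (adjusted p 0.108) and Flt1 3.09 (adjusted p 0.0327).

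Depth limits the wild-type values of Tek, Tie1, Esam and Kdr, which rest on at most 38 counts in a library. Among list genes called lower, Vwf passed in 7 of 13 alternatives and Lmo2, Plvap, Elane and Tjp1 in 8.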
